A study of Homo sapiens with 4 samples.

Results

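The enzymes that make serine and pass its carbon through the mitochondrial folate pathway were examined in HGC27 cells given lactate in place of glucose. The set held 10 genes, taken by name from a table of 60666 rows, and each name occurred once with a usable value. Members were PHGDH, PSAT1 and PSPH of serine synthesis, SHMT2, MTHFD2, MTHFD2L, MTHFD1L and ALDH1L2 of the mitochondrial folate pathway, and the cytosolic enzymes SHMT1 and MTHFD1. HGC27 is an established human gastric cancer line, and every library came from this line in glucose-free DMEM with serum and antibiotics. The lactate group (n = 2) had 25 mM lactate for 24 h, and the no-glucose group (n = 2) had none added. No group with glucose was analysed here, so each comparison is of lactate against no glucose and not against full medium. The labels do not say whether the libraries of a group came from separate cultures, and p-values therefore measure only the spread between these libraries, which may be technical.

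Serine synthesis branches from glycolysis at 3-phosphoglycerate. PHGDH oxidizes this intermediate, PSAT1 adds an amino group from glutamate, and PSPH removes the phosphate to leave serine. In mitochondria SHMT2 then splits serine into glycine and a carbon unit carried on tetrahydrofolate, MTHFD2 or MTHFD2L oxidizes that unit, and MTHFD1L releases it as formate, while ALDH1L2 can oxidize it to carbon dioxide with gain of NADPH. In the cytosol MTHFD1 loads formate onto folate again for purine and thymidylate synthesis, and SHMT1 is the cytosolic counterpart of SHMT2. Many of these genes are known targets of ATF4, the transcription factor of the amino acid response.

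Values are in TPM, a length-scaled share of each library's transcripts, so levels of different genes can be set side by side. TPM keeps no record of depth, and no counting interval was computed. The columns summed to between 995439 and 996089, and the 15051 rows averaging 1 TPM or more were tested with limma. Of these rows, 706 rose and 286 fell (adjusted p under 0.05), or 377 and 398 under median-ratio scaling. That scaling moved log2 fold changes by a median of -0.10, and the median of all tested rows was 0.083 without it. Markers of the labelled tissue were scarce. Of 10 gastric epithelial markers, 7 were listed at 0 in every library, among them MUC5AC and TFF1, and their sum was between 1.06 and 2.69 TPM with lactate and between 1.49 and 4.40 TPM without. The 5 epithelial markers summed to 10.6 and 8.77 TPM with lactate and to 4.51 and 3.77 TPM without. Of 4 mesenchymal markers, the filament gene VIM was between 2747 and 2984 TPM in the 4 libraries, FN1 and ZEB1 were between 17.3 and 31.1 TPM, and CDH2 was at 0.08 TPM or less. Among 13 markers of other cells, the matrix genes COL1A1, COL3A1, DCN and LUM were each high (LUM, the lowest, at 151.9 to 195.7 TPM), CD3E and HBB were listed at 0, and PTPRC and PECAM1 were at or near 0. The list summed to 1487 and 1492 TPM with lactate and to 1187 and 1236 TPM without. In limma 1 of its 6 tested genes, COL3A1, rose (log2 fold change 0.58, adjusted p = 0.0327), against 4.69% of all tested rows. Groups did not overlap and were higher with lactate for 3 of the 6, against 37.0% of all tested rows. They did not overlap and were lower for 1, DCN (log2 fold change -0.28), against 21.3%. The part of this list in the results below was not tested.

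MTHFD1, a cytosolic enzyme, was lower with lactate, and 8 of the 10 enzymes had log2 fold changes between -0.056 and 0.17. Of the 10 enzymes, MTHFD1 fell, none rose in limma and 9 did not pass the test. MTHFD1 was also the only member with an unadjusted p under 0.05, against 28.2% of all tested rows. Over all tested rows 6.59% were called, 4.69% upward and 1.90% downward, so 1 call among 10 genes is near that background. The median log2 fold change of the members was 0.018, against 0.083 over all tested rows. Groups did not overlap for 5 members, 3 higher and 2 lower with lactate, while 37.0% of all tested rows lay apart and higher and 21.3% apart and lower, 58.4% in all. Summed over the 10 genes, the pathway stood at 2240 and 2406 TPM with lactate and at 2334 and 2427 TPM without. In such bulk RNA, fewer cells that use a gene and less of its RNA per cell cannot be told apart.

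**Figure D1:**
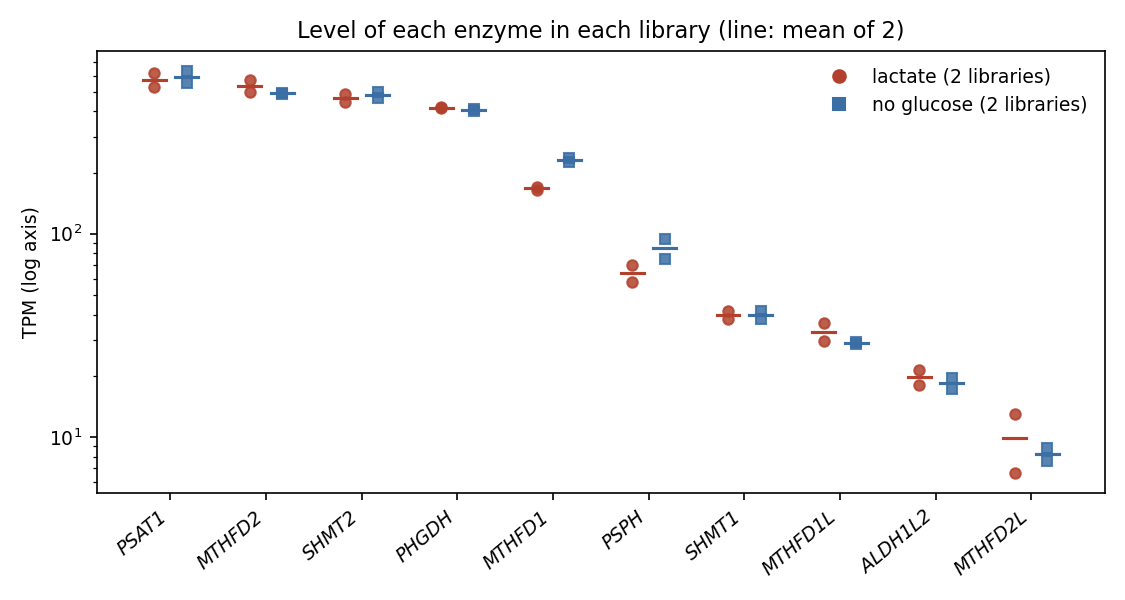
Level of each of the 10 enzymes in TPM on a log axis, in order of the mean over 4 libraries, with lactate libraries as circles to the left and no-glucose libraries as squares to the right, each symbol 1 library and each line the mean of 2. PSAT1, MTHFD2, SHMT2 and PHGDH lie above 400 TPM in every library and MTHFD2L lies between 6.67 and 13.0 TPM.

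The levels spanned from 582.6 TPM for PSAT1 to 9.03 TPM for MTHFD2L, as means over the 4 libraries. PSAT1, MTHFD2, SHMT2 and PHGDH formed the upper tier and were each in the top 2% of tested rows by mean TPM, at percentiles of 98.2 to 98.7. MTHFD1 followed at 199.0 TPM, then PSPH at 74.3, SHMT1 at 39.9, MTHFD1L at 31.0, ALDH1L2 at 19.0 and MTHFD2L at 9.03 TPM. In this order the ranges of PSAT1 and MTHFD2 overlapped over the 4 libraries, as did those of MTHFD2 and SHMT2, and no other neighbours overlapped. PSAT1 was nevertheless above MTHFD2 in each of the 4 libraries, and MTHFD2 was above SHMT2 in 3 of them. Within serine synthesis PSPH supplied the smallest part, 5.78% and 6.30% of the summed TPM of the pathway's enzymes with lactate and 7.29% and 8.32% without. SHMT2 and MTHFD2 together made up nearly all of the mitochondrial sum, and the enzymes that follow them, MTHFD1L and ALDH1L2, made up between 1.65% and 3.35% of it each.

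MTHFD1, the cytosolic enzyme with activities for formate activation and for both folate interconversions that follow, was lower with lactate (NCBI gene 4522, chromosome 14, 64388031 to 64463457, plus strand, GRCh38). It stood at 164.7 and 170.4 TPM in the lactate libraries, against 226.2 and 234.6 TPM in the no-glucose libraries. The libraries of a group lay within a few percent of each other, and both lactate values were below both no-glucose values. The log2 fold change was -0.46 ± 0.08 (SE), with a 95% interval of -0.66 to -0.25 and an adjusted p of 0.0447 (limma, n = 2 per group). The call is close to the threshold: it ended when all rows above 0 were tested (adjusted p = 0.119) and in each fit on 3 libraries (adjusted p from 0.138 to 0.292), while the log2 fold change stayed between -0.57 and -0.43 over all alternatives.

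The end of MTHFD1 overlaps that of ZBTB25, a zinc finger gene read from the minus strand (chromosome 14, 64449106 to 64505213), and the annotation gives them 178 exonic bases in common. ZBTB25, chosen after its values were seen, was at 9.09 and 7.60 TPM with lactate and at 3.87 and 3.35 TPM without. It rose by 1.02 ± 0.16 on the log2 scale (adjusted p = 0.0390), a call that ended under median-ratio scaling (adjusted p = 0.0519), with all rows above 0 tested (adjusted p = 0.129) and in each fit on 3 libraries (adjusted p from 0.138 to 0.289). The pair thus moved in opposite directions. The sources used here do not say whether counting used strand, so reads of the shared bases could have been given to either gene. An antisense row inside MTHFD1, AL122035.2, shares 756 exonic bases with it and stayed between 0.16 and 0.59 TPM in all 4 libraries. The limit is not particular to MTHFD1, since 6 of the 10 enzymes share exonic bases with other genes, 11 in all. ALDH1L2, for example, shares 145 with C12orf45, which was between 12.9 and 18.7 TPM.

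Sequence near the start is shown for MTHFD1 and its mitochondrial relative MTHFD1L, the enzymes in which a motif search found a match. RefSeq promoter entries on GRCh38.p14 matched 7 of the 10 enzymes, with 11 entries, and the 250 bases before each start were searched on both strands. The letters searched were CACGTG, the E-box read by MYC and its relatives, TGATGNAA, the composite element read by ATF4 with C/EBP partners, and GGAATG, the TEAD motif. MTHFD1 and MTHFD1L each held an E-box and MTHFD1L also held the ATF4 composite, and no other entry of these enzymes held any of the 3 motifs. The motif letters are in capitals in the stretches of 30 bases below, read 5′ to 3′ on the plus strand of each gene. The E-box of MTHFD1, within the stretch chr14:64388326-64388355, begins 15 bases before the RefSeq start of its 1 entry. In MTHFD1L the E-box, within the stretch chr6:150866320-150866349, begins 154 bases before the start of 1 of its 4 entries and 115 bases before that of another. The composite, within the stretch chr6:150866346-150866375, begins 129 and 90 bases before those starts. In both genes the sites lie downstream of the outermost start that GENCODE gives.
MTHFD1 E-box: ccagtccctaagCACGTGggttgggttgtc
MTHFD1L E-box: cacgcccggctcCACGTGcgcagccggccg
MTHFD1L ATF4 composite: gccgccggctcTGATGCAAtcgcgccgggc
Of 35116 RefSeq promoter entries, 6.34% held the E-box letters, 3.14% the composite and 11.9% the TEAD letters within the same length. A match is a description of the letters and not of a bound site. PSPH, SHMT2 and ALDH1L2 had no entry.

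Of the serine synthesis enzymes, none passed the test, and PSPH had lower values in both lactate libraries. PHGDH (NCBI gene 26227, chromosome 1, 119648411 to 119744226) was at 414.4 and 420.0 TPM with lactate and at 400.2 and 409.8 TPM without. The groups did not overlap, but by only a few TPM, with a log2 fold change of 0.04 ± 0.08 (adjusted p = 0.748) and an interval of 0.901 to 1.18 as a fold. Under median-ratio scaling the PHGDH value turned to -0.07. PSAT1 (NCBI gene 29968, chromosome 9, 78297143 to 78330093) was at 526.8 and 619.5 TPM with lactate and at 551.1 and 633.1 TPM without. Its libraries spread more within a group than between groups, with a log2 fold change of -0.05 ± 0.12 (adjusted p = 0.827) and an interval of 0.784 to 1.19 as a fold. The sign of PSAT1 changed when single libraries were left out.

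PSPH (NCBI gene 5723, chromosome 7, 56011051 to 56051604, minus strand) was at 57.7 and 69.9 TPM with lactate and at 74.8 and 94.7 TPM without. Both lactate values lay below both no-glucose values, though the gap between the groups was smaller than the spread within either. The log2 fold change was -0.40 ± 0.16 (adjusted p = 0.178), with an interval from -0.80 to 0.0012. PSPH has an unprocessed pseudogene copy on the same chromosome, PSPHP1 (55764797 to 55773288). Of the 50-base words in the annotated PSPHP1 transcript, 34.4% also occur in PSPH transcripts, where they are 2.3% of the words. RSEM could have split reads of the shared stretches between the 2 genes. PSPHP1 was at 20.2 and 23.4 TPM with lactate and at 19.7 and 15.8 TPM without (log2 fold change 0.29 ± 0.15, adjusted p = 0.283). With both rows summed, an alternative chosen after seeing the data, the log2 fold change of the sum was -0.26 (adjusted p = 0.274). The sum includes the pseudogene's own change, and because TPM is scaled by length it does not restore reads that were split. Of 14 rows named as copies of the 10 enzymes, PSPHP1 was the only one above 0.22 TPM, and 8 were listed at 0 in every library.

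**Figure D2:**
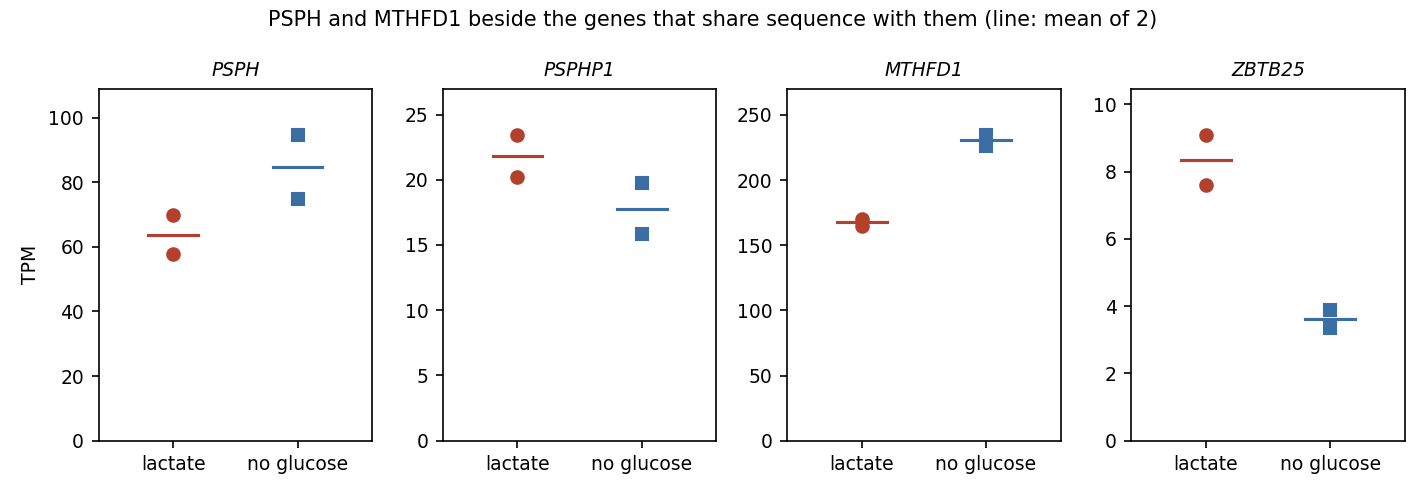
PSPH with its pseudogene PSPHP1, and MTHFD1 with its overlapping neighbour ZBTB25, in TPM with each axis starting at 0, circles for 2 lactate and squares for 2 no-glucose libraries and lines for their means. MTHFD1 is at 164.7 and 170.4 TPM with lactate and at 226.2 and 234.6 TPM without, while ZBTB25 is at 9.09 and 7.60 TPM with lactate and at 3.87 and 3.35 TPM without.

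The enzymes that open the folate pathway had overlapping groups in both compartments. SHMT2 (NCBI gene 6472, chromosome 12, 57229327 to 57234935) was at 484.4 and 442.9 TPM with lactate and at 500.6 and 463.4 TPM without. The groups overlapped, with a log2 fold change of -0.06 ± 0.09 (adjusted p = 0.723) and an interval of 0.820 to 1.13 as a fold. SHMT1 (NCBI gene 6470, chromosome 17, 18327860 to 18363563, minus strand) was at 37.8 and 41.7 TPM with lactate and at 38.1 and 41.8 TPM without. Its log2 fold change was -0.0071 ± 0.11 (adjusted p = 0.974, limma), with an interval of 0.821 to 1.21 as a fold, and -0.12 under median-ratio scaling. SHMT transcripts thus came mostly from SHMT2, with an SHMT2 to SHMT1 ratio of 12.8 and 10.6 with lactate and 13.1 and 11.1 without.

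Further along the mitochondrial pathway, no difference passed the test. Mean levels were slightly higher with lactate, but under median-ratio scaling the log2 fold changes were only 0.012 for MTHFD2, 0.063 for MTHFD1L and 0.074 for MTHFD2L, and ALDH1L2 turned to -0.013. MTHFD2 (NCBI gene 10797, chromosome 2, 74198562 to 74217565), the NAD-dependent dehydrogenase that is high in embryonic and tumour cells, was at 500.3 and 570.8 TPM with lactate and at 489.0 and 492.6 TPM without. The lactate libraries were both higher but differed more from each other than the nearer one did from no glucose, and the log2 fold change was 0.12 ± 0.09 (adjusted p = 0.442, interval 0.922 to 1.28 as a fold). Its close relative MTHFD2L (NCBI gene 441024, chromosome 4, 74114174 to 74303099) was at 6.67 and 13.0 TPM with lactate and at 7.62 and 8.81 TPM without. The lactate libraries of MTHFD2L stood on either side of the no-glucose libraries, so its log2 fold change of 0.17 ± 0.30 was the least certain of the set (adjusted p = 0.741, interval 0.666 to 1.91 as a fold), and it ran from -0.26 to 0.61 when single libraries were left out.

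MTHFD1L (NCBI gene 25902, chromosome 6, 150865549 to 151101887), which releases formate from mitochondria, was at 29.6 and 36.4 TPM with lactate and at 29.3 and 28.8 TPM without. The groups did not overlap, but 1 lactate library was within 1 TPM of the no-glucose values, and the log2 fold change was 0.17 ± 0.13 (adjusted p = 0.442, interval 0.893 to 1.42 as a fold). ALDH1L2 (NCBI gene 160428, chromosome 12, 105019784 to 105084577, minus strand) was at 18.0 and 21.3 TPM with lactate and at 17.2 and 19.4 TPM without. Its groups overlapped (log2 fold change 0.09 ± 0.14, adjusted p = 0.694, interval 0.840 to 1.35 as a fold). The interval of MTHFD2L includes a fall as large as that of MTHFD1, which was therefore not detectable there, and those of MTHFD2, MTHFD1L and ALDH1L2 do not.

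**Figure D3:**
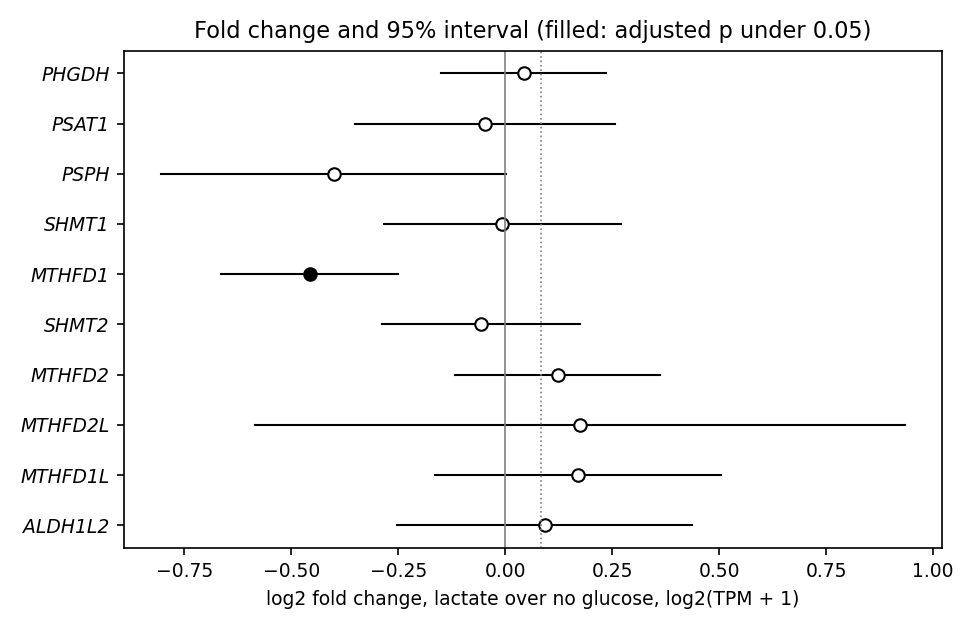
Log2 fold change, on the log2(TPM + 1) scale, of lactate over no glucose for each enzyme with its 95% interval from limma (n = 2 per group). The filled point is MTHFD1, the only called member at -0.46, the solid line marks 0 and the dotted line the median of all tested rows at 0.083.

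Ratios within a library do not depend on how libraries are scaled, and they set the mitochondrial against the cytosolic side. The mitochondrial enzymes summed to 1039 and 1084 TPM with lactate and to 1044 and 1013 TPM without, and these groups overlapped. The cytosolic pair SHMT1 and MTHFD1 summed to 202.6 and 212.0 TPM with lactate and to 264.3 and 276.4 TPM without, with groups apart. MTHFD1 made up 81.3% and 80.4% of the cytosolic sum with lactate and 85.6% and 84.9% without. The ratio of mitochondrial to cytosolic sums was accordingly 5.13 and 5.11 with lactate and 3.95 and 3.67 without, a ratio of means of 1.34. MTHFD1L per MTHFD1, the formate-releasing against the formate-using enzyme, was 0.179 and 0.213 with lactate and 0.130 and 0.123 without. MTHFD2 per MTHFD1 was 3.04 and 3.35 with lactate and 2.16 and 2.10 without. All 3 of these ratios hold MTHFD1 and are not independent of its fall. An exact permutation test of 2 against 2 libraries cannot go below p = 0.33, so the ratios carry no call. MTHFD2 per MTHFD2L varied from 43.8 to 75.0 within the lactate group alone, and its groups overlapped. No 50-base word was shared between the transcripts of SHMT1 and SHMT2, of MTHFD1 and MTHFD1L, or of MTHFD2 and MTHFD2L.

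**Figure D4:**
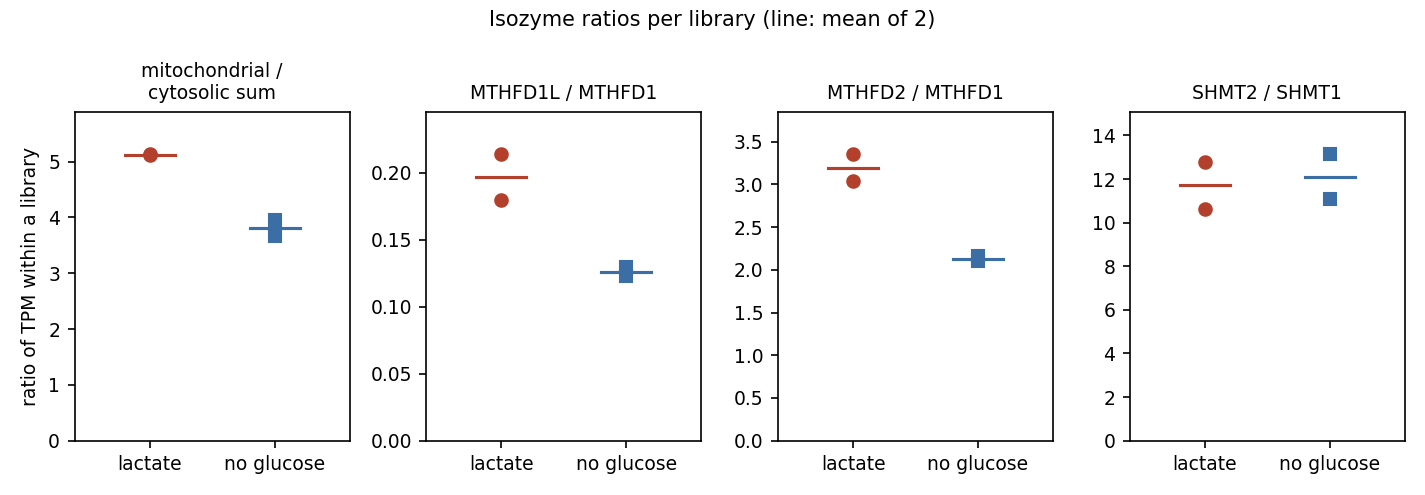
Ratio of TPM values within each library for the mitochondrial against the cytosolic enzymes and for 3 pairs, with each axis starting at 0, circles for 2 lactate and squares for 2 no-glucose libraries and lines for their means. The ratios to MTHFD1 are higher in both lactate libraries, for example 0.179 and 0.213 with lactate and 0.130 and 0.123 with no glucose for MTHFD1L per MTHFD1, while SHMT2 per SHMT1 overlaps between groups.

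In the folate pathway around these enzymes, the gene for thymidylate synthase fell as well. Lists of neighbouring genes were described by counts, without a test over the list. Of 14 genes of the cytosolic folate cycle, folate uptake and nucleotide synthesis, 13 were tested. Of these, 1 fell, against 1.90% of all tested rows, none rose and 12 did not pass. In limma 4 of the 13 had an unadjusted p under 0.05, a share near the 28.2% of all tested rows. The median log2 fold change was -0.04, against 0.083 over all of them. Groups lay apart and lower with lactate for 6 of the 13, against 21.3% of all tested rows. They lay apart and higher for 1, against 37.0%. TYMS, which makes thymidylate with a folate carbon, was at 171.8 and 172.8 TPM with lactate and at 243.2 and 257.9 TPM without, a log2 fold change of -0.54 ± 0.08 (adjusted p = 0.0376). Its size is close to that of MTHFD1. ALDH1L1, the cytosolic relative of ALDH1L2, was at or near 0 in all libraries.

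None of the 5 tested genes of glycine cleavage and mitochondrial folate passed in limma, where 6.59% of all tested rows were called. An unadjusted p under 0.05 was found for 1 of the 5, against 28.2% of all tested rows. The median log2 fold change was -0.0099, against 0.083 over all tested rows. SLC25A32, the carrier that brings folate into mitochondria, was at 11.5 and 11.2 TPM with lactate and at 12.5 and 15.2 TPM without (-0.26 ± 0.14, adjusted p = 0.283). GLDC, the decarboxylase of the glycine cleavage system, lay below the filter at 1.04 and 0.21 TPM with lactate and at 0.62 and 0.55 TPM without.

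Of 19 genes of serine transport and use, 17 were tested, 2 rose, none fell and 15 did not pass. Over all tested rows 4.69% rose and 1.90% fell. The median of the list was 0.086, against 0.083 over all tested rows. In limma 5 of the 17 had an unadjusted p under 0.05, against 28.2% of all tested rows. SFXN3, a sideroflexin related to the mitochondrial serine carrier SFXN1, was at 33.1 and 34.2 TPM with lactate and at 12.9 and 14.9 TPM without, a log2 fold change of 1.22 ± 0.12 (adjusted p = 0.0253). CTH, which cleaves cystathionine to cysteine, was at 39.3 and 45.5 TPM with lactate and at 26.8 and 28.2 TPM without (0.60 ± 0.12, adjusted p = 0.0489), a call that ended under median-ratio scaling (adjusted p = 0.0608). CBS, the enzyme that joins serine to homocysteine a step before CTH, was below 0.3 TPM in every library.

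In the methionine cycle 7 of 12 genes were tested, of which 1 rose, 1 fell and 5 did not pass (median -0.0031). The shares over all tested rows were 4.69% upward and 1.90% downward. An unadjusted p under 0.05 in limma was found for 4 of the 7, against 28.2% of all tested rows. MAT2A, which makes S-adenosylmethionine, was at 329.1 and 354.4 TPM with lactate and at 560.9 and 570.5 TPM without, a log2 fold change of -0.73 ± 0.08 (adjusted p = 0.0306). AHCYL1, a relative of the cycle's hydrolase that binds inositol trisphosphate receptors, was at 96.9 and 101.3 TPM with lactate and at 64.6 and 61.6 TPM without (0.64 ± 0.09, adjusted p = 0.0340). The hydrolase itself, AHCY, was at 227.5 and 205.7 TPM with lactate and at 224.9 and 208.9 TPM without.

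Among 19 genes of ATF4 and its amino acid response, 3 rose, against 4.69% of all tested rows, none fell and 16 did not pass. Their median log2 fold change was 0.22, against 0.083 over all rows, and 9 had an unadjusted p under 0.05 in limma, against 28.2% of all rows. Groups lay apart and higher with lactate for 11 of the 19, against 37.0% of all tested rows. They lay apart and lower for 4, against 21.3%. Among these 4, ATF5 had a log2 fold change of -0.75 and did not pass (adjusted p = 0.0546, limma). ATF4 was at 654.4 and 653.6 TPM with lactate and at 572.0 and 596.6 TPM without (0.16 ± 0.08, adjusted p = 0.232). The genes that rose were PCK2, the mitochondrial enzyme that makes phosphoenolpyruvate from oxaloacetate, at 144.5 and 144.4 TPM with lactate and 81.2 and 81.6 TPM without, TRIB3 at 73.8 and 70.7 TPM with lactate and 38.7 and 42.3 TPM without, and PPP1R15A at 37.6 and 33.5 TPM with lactate and 17.2 and 18.3 TPM without. PHGDH, PSAT1, PSPH, SHMT2 and MTHFD2 did not pass in the same fit, and whether they differed from PCK2 in response was not tested. None of the 6 glycolytic genes on either side of 3-phosphoglycerate passed in limma, where 6.59% of all tested rows were called. Of the 6, 3 had an unadjusted p under 0.05, against 28.2% of all tested rows. GAPDH, PGK1, PGAM1, ENO1 and PKM had lower values with lactate in both libraries, as did 21.3% of all tested rows, and BPGM had higher ones, with a median of -0.23 over the 6. Each call named in these lists ended with all rows above 0 tested and in each fit on 3 libraries, and adjusted p was then between 0.108 and 0.292.

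**Figure D5:**
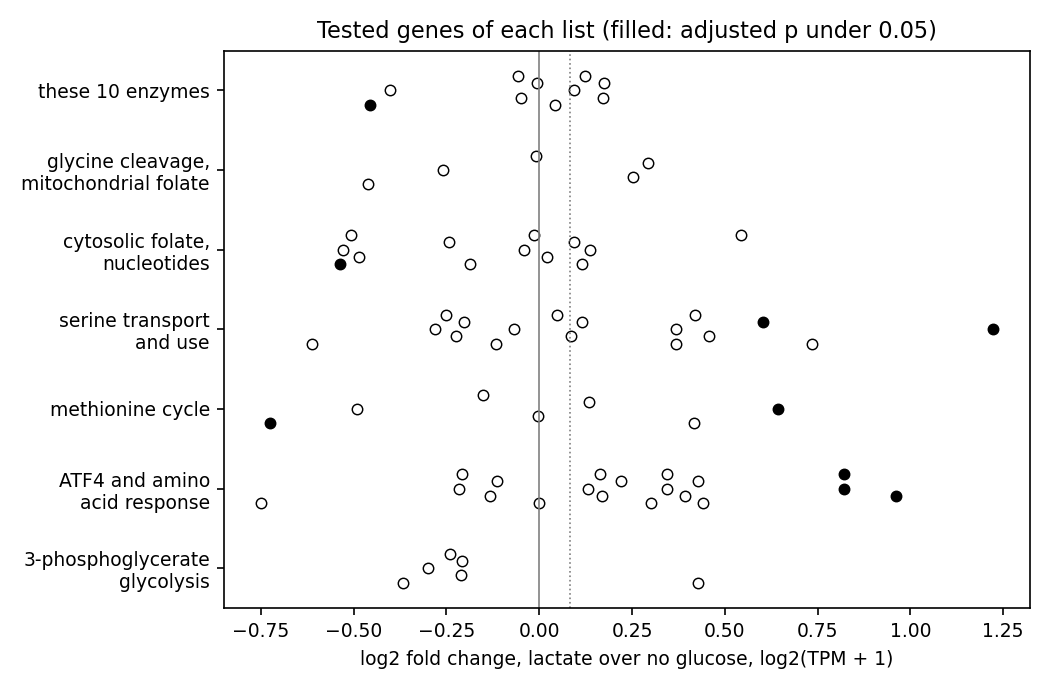
Log2 fold change of lactate over no glucose, in log2(TPM + 1), of every tested gene in the 10 enzymes and in 6 lists of neighbouring genes, each point 1 gene and filled where adjusted p was under 0.05. The 10 enzymes lie between -0.46 and 0.17, while filled points in the lists run from -0.73 for MAT2A to 1.22 for SFXN3.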

How the data were processed

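The authors deposited 1 table for the 4 libraries (2 lactate, 2 no glucose), read as TPM because the column sums match that unit and the submitters' processing notes name RSEM 1.3.3 and genome build hg38. Aligner, annotation and strand setting: not given in the sources used here. Depth is unknown. No counts are in the table, so no count model was fitted. Values were transformed as log2(TPM + 1), rows averaging 1 TPM or more were kept, and the group was the only term in limma 3.58.1 (R 4.3.3) with a variance prior that follows expression. P-values are two-sided and Benjamini-Hochberg adjusted over all 15051 tested rows. Fold changes are lactate over no glucose, and the pseudocount of 1 understates changes of low genes. The script was tested on simulated data.

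The enzymes and all gene lists were chosen with earlier results of these data known. Named genes are all 10 enzymes, ATF4, GLDC, TYMS and SLC25A32, and up to 4 called genes per direction from each list with the smallest adjusted p; other names illustrate a list and were chosen after seeing the values. Some genes of the rule are not reported here. Gene positions are from GENCODE 29 on GRCh38, the same assembly as hg38, and promoter sequences from RefSeq (GRCh38.p14). Alternatives were a pseudocount of 0.1, no filter, a filter at 5 TPM, median-ratio scaling, protein-coding rows, a replicate block and leaving out each library. Summing PSPH with PSPHP1 was added after seeing the data.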

Additional observations from a re-analysis of the deposited data

How the results depend on the processing

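MTHFD1 kept its direction in every alternative run and was called with a pseudocount of 0.1, a 5 TPM filter, median-ratio scaling, protein-coding rows only and the replicate block. Without a filter there were 0 called members, 0 called genes in the lists and 0 rises and 0 falls over all rows in limma, with 5072 rows at an unadjusted p under 0.05. Fits on 3 libraries, which assume that the lone sample varies like the other group, gave 0 called members and 0 called list genes each time, and over all rows from 0 to 6 rises and from 0 to 2 falls, with 2377 to 3794 rows at an unadjusted p under 0.05. Median-ratio scaling gave 377 rises, protein-coding rows 1497 rises and 564 falls, and the 5 TPM filter 442 falls. Falls in the lists numbered 4 with a pseudocount of 0.1, 6 with the 5 TPM filter, 8 with protein-coding rows and 6 with the replicate block, against 2. Scaling moved the log2 difference of the summed serine synthesis enzymes to -0.15, of the mitochondrial sum to -0.065, of the cytosolic sum to -0.49 and of all 10 to -0.15, and turned PHGDH (-0.068) and ALDH1L2 (-0.013). Leaving out single libraries turned values that were not called, over ranges of -0.16 to 0.069 for PSAT1, -0.075 to 0.061 for SHMT1, -0.12 to 0.0081 for SHMT2, -0.26 to 0.61 for MTHFD2L and -0.026 to 0.21 for ALDH1L2. The causes were not tested. The labels do not say whether libraries with the same number share anything beyond it. Their deviations correlated at 0.035 over all tested rows, though 9 of 10 members differed between replicates in the same direction in both conditions, against 58.8% of all rows. The replicate block gave 1207 calls against 992 and left PSPH at an adjusted p of 0.0544.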

Other observations

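HBA1, which encodes alpha globin and has a near-identical copy in the genome, was at 108.1 and 79.8 TPM with lactate and at 100.9 and 111.8 TPM without, while HBB was listed at 0 in all 4 libraries. KRT8, an epithelial keratin, was low but higher with lactate, at 6.07 and 6.0 TPM with lactate and 2.08 and 1.87 TPM without (log2 fold change 1.24, adjusted p = 0.0328, limma, n = 2 per group), and its partner KRT18 stayed below 1 TPM.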
